A study of Mus musculus with 59 samples.

Results

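The insulin-like growth factor (IGF) family was followed here through 10 genes of the 54232 mouse genes counted: the ligands Igf1 and Igf2, the receptors Igf1r and Igf2r, and the IGF-binding proteins Igfbp2, Igfbp3, Igfbp4, Igfbp5, Igfbp6, and Igfbp7. They belong to the family by name, the choice of the family was made with earlier results of these data known, and all 10 passed the filter on low counts in every region. Igfbp1 was counted with the other genes of the pathway.

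In this family, the secreted ligands IGF1 and IGF2 act on the tyrosine kinase receptor IGF1R, which signals through the insulin receptor substrates to PI3 kinase, AKT, and mTOR. IGF2R binds IGF2 without a kinase and carries it to lysosomes. The binding proteins hold the ligands outside the cell, lengthen their life, and keep them from or hand them to the receptor, and extracellular proteases release the ligand again. In the brain, the pathway is known for its part in the growth and survival of neurons, and in the adult, IGF2 and IGFBP2 are made in large amounts by the choroid plexus and the meninges.

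Bulk RNA sequencing covered 5 brain regions (cerebellum, brainstem, hippocampus, striatum, and cortex) of 12 C57BL/6 mice at 10 weeks of age. The 4 wild-type (WT) mice were WT-221, WT-220, WT-77, and WT-70. The 4 Atxn1 154Q/2Q mice (154Q-76, 154Q-75, 154Q-71, and 154Q-69, called 154Q) carry an expanded CAG repeat in 1 allele of Atxn1, the knock-in model of spinocerebellar ataxia type 1. In the mice called 154Q-AXH (154Q-AXH-218, 154Q-AXH-217, 154Q-AXH-209, and 154Q-AXH-207), whose genotype is written Atxn1 154Q[V591A;S602D]/2Q, the expanded allele also has V591A and S602D in the AXH domain, which disrupt binding of ATXN1 to the repressor Capicua (CIC), while the other allele is normal. Each group had 4 libraries except 154Q-AXH brainstem, with 3. The knock-in alleles are present in every cell and throughout life. In bulk tissue, fewer cells of a type and less RNA per cell cannot be told apart, and gene counts do not tell the Atxn1 alleles apart.

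The libraries held 28058359 to 112343574 counted read pairs, so that a median of 9679 pairs fell on Igfbp5 and of 73 on Igf2. All 154Q mice had numbers under 100 and all 154Q-AXH mice numbers over 200, with WT mice in both series. What the numbers stand for is not given in the sources used here, and the 154Q and 154Q-AXH mice cannot be told apart by genotype from the number series. In every region the median summed level of its own marker list was above that in the other regions, but the ranges of the cortical list in cortex (316 to 553 CPM) and in striatum (187 to 521 CPM) overlapped, where CPM is the usual count scaled to library size, here with TMM factors within a region. The hippocampal library labelled 154Q-76 reached 323 CPM for the brainstem list. It also held both Xist (187 CPM) and Ddx3y (53.8 CPM), while the other libraries of that mouse had 0.213 to 5.30 CPM of Xist and 68.2 to 154 CPM of Ddx3y. The hippocampal 154Q means include it. The cortical library labelled WT-221 had 470.0 CPM of Xist and 0.897 CPM of Ddx3y, against 0.411 to 5.92 CPM and 72.2 to 159 CPM in the other libraries of that mouse. The names and labels of 2 cortical libraries, 154Q-76 and 154Q-AXH-207, disagree, and the labels were used. Member and pathway genotype calls that were lost or gained without these 4 libraries are given with both values or counts. In the cerebellum, 154Q-75 and 154Q-AXH-217 had 1161 and 1062 CPM of Xist and 0.353 and 0.558 CPM of Ddx3y. The other cerebellar libraries had 0.233 to 2.68 CPM of Xist and 133 to 159 CPM of Ddx3y. The same 2 mice had high Xist and little Ddx3y in hippocampus and striatum, where no WT library did. Sex was in no fit, and its part in these results was not tested.

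The binding proteins Igfbp5 and Igfbp4 carried the largest changes, so the sequences just before their transcription starts are shown. They are the 250 bases before the RefSeq start in GRCm38.p6, Igfbp5 at chr1:72874866-72875115 on the minus strand and Igfbp4 at chr11:99040994-99041243 on the plus strand, 5′ to 3′. Capitals mark the TATA box TATAAA.
Igfbp5: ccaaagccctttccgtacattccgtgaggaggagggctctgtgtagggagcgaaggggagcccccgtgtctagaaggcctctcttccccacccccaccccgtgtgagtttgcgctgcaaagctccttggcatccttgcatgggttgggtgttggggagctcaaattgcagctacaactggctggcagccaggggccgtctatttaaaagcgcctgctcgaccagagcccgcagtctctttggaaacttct
Igfbp4: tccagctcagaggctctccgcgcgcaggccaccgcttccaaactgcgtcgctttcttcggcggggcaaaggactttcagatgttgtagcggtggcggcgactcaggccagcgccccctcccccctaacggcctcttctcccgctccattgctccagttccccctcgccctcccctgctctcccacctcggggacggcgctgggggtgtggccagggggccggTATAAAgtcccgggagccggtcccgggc
Because 154Q-AXH differs from 154Q in CIC binding, the octamers TGAATGAA, TGAATGGA, TCAATGAA, and TCAATGGA, given as CIC sites, were searched on both strands. No window of the family held any of them, among 14 windows for the 10 members, against 3.19% of the 32851 promoter windows of the genome. TATAAA stood in 12.37% of all windows. It was found 28 to 23 bases before the start of Igfbp4 on the gene's own strand, and 148 to 143 bases before that of Igfbp6 on the opposite strand. These are matches of letters in a short window.

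Igfbp5 encodes a binding protein that attaches to the extracellular matrix. In WT mice, it had the highest CPM of the family in every region. Its transcript was lower in 154Q than in WT mice in 4 of the 5 regions, and in 154Q-AXH mice in cerebellum and cortex. The largest difference was in the cerebellum. There WT mice had 247, 206.6, 274, and 263 CPM, 154Q mice 95.5, 114, 115, and 101 CPM, and 154Q-AXH mice 139.8, 140.0, 130.4, and 134 CPM, in order of mouse number. Every mutant library lay below every WT library, and all 154Q libraries lay below all 154Q-AXH libraries. The 154Q mean was 43.0% and the 154Q-AXH mean 54.9% of the WT mean. The summed level of the 5 cerebellar markers did not overlap WT either, with 6391 to 6751 CPM in WT, 5344 to 5614 CPM in 154Q, and 5927 to 6218 CPM in 154Q-AXH. Of these 5, 2 were called lower in each mutant genotype (median log2 fold change of the list -0.36 and -0.24), and their part in the Igfbp5 result was not tested. The log2 fold change of Igfbp5 was -1.22 ± 0.08 (adjusted p = 7.8e-07) in 154Q and -0.86 ± 0.08 (adjusted p = 8.8e-05) in 154Q-AXH (± SE, quasi-likelihood test of edgeR, adjusted by Benjamini-Hochberg over all genes of the region, as throughout).

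In the cortex, the Igfbp5 level was 146, 162, 191, and 169 CPM in WT, 101, 116, 115, and 118 CPM in 154Q, and 136, 132, 107, and 129 CPM in 154Q-AXH libraries. Neither mutant group overlapped WT, and the mutant groups overlapped each other. Igfbp5 was lower by a log2 fold change of -0.57 ± 0.08 (adjusted p = 0.00055) in 154Q and -0.41 ± 0.08 (adjusted p = 0.008) in 154Q-AXH. In the hippocampus, WT libraries had 218.03, 165, 211, and 223 CPM, 154Q libraries 156, 128, 141, and 119 CPM, and 154Q-AXH libraries 172, 158, 161, and 194 CPM. Only the 154Q group lay wholly below WT. The fold change was -0.59 ± 0.11 (adjusted p = 0.0089) in 154Q (-0.54, adjusted p = 0.014 without 154Q-76), while -0.26 ± 0.11 (adjusted p = 0.29) in 154Q-AXH did not pass the test. In the striatum, Igfbp5 ranged from 118 to 142 CPM in WT, 91.5 to 104 CPM in 154Q, and 92.5 to 135 CPM in 154Q-AXH, and the fold changes were -0.41 ± 0.11 (adjusted p = 0.043) and -0.16 ± 0.11 (adjusted p = 0.62). The striatal call in 154Q was the least firm, since it held in 4 of 12 fits that left out 1 library. In the brainstem, the levels were 135, 103, 155, and 147 CPM in WT, 115, 106, 101, and 107 CPM in 154Q, and 102, 95.9, and 107 CPM in 154Q-AXH, and neither -0.33 ± 0.10 (adjusted p = 0.21) nor -0.41 ± 0.11 (adjusted p = 0.44) passed the test. Without the lowest WT library, WT-77, both brainstem comparisons passed it (-0.44, adjusted p = 0.015 in 154Q and -0.52, adjusted p = 0.025 in 154Q-AXH).

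**Figure D1:**
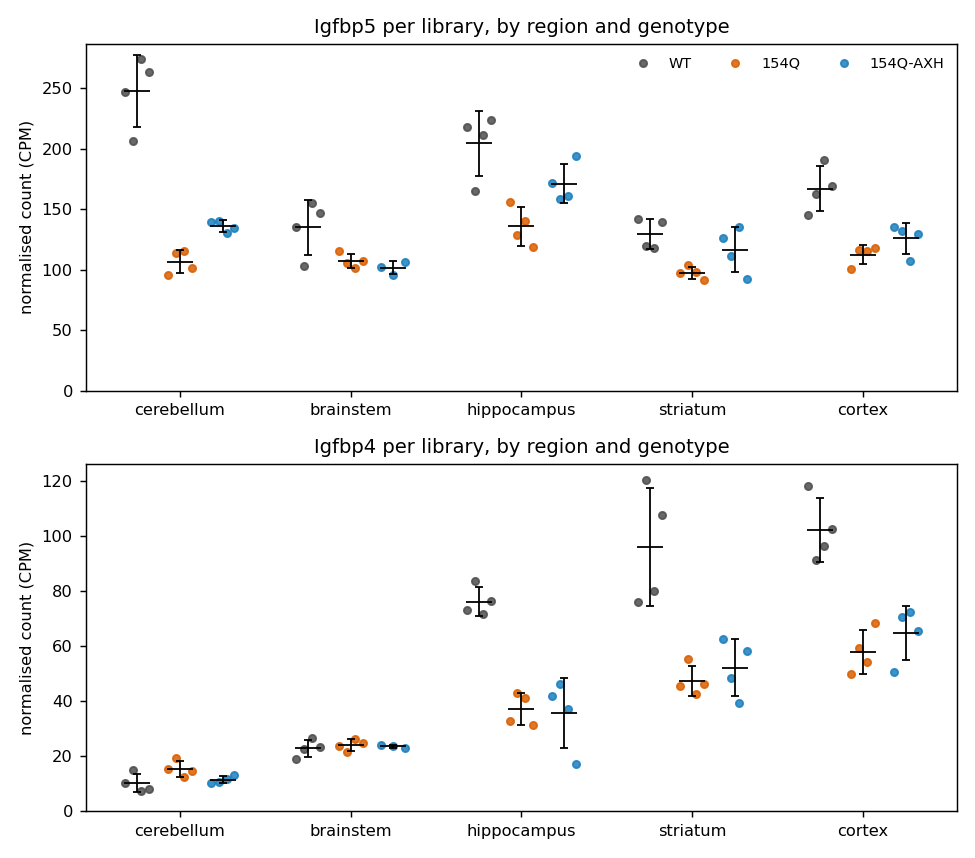
CPM of Igfbp5 (upper panels) and Igfbp4 (lower panels) in each library of 5 regions, by genotype. Points are libraries, horizontal marks are group means, and error bars are SD. In the cerebellum, Igfbp5 mutant libraries sit at or below 140.0 CPM and every WT library lies higher. Igfbp4 mutant libraries sit below WT in hippocampus, striatum, and cortex, and the groups overlap in cerebellum and brainstem.

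Igfbp4 encodes a binding protein that mostly inhibits IGF action and is cut by the protease PAPP-A. It was lower in both mutant genotypes in the 3 forebrain regions, hippocampus, striatum, and cortex. In the hippocampus, WT libraries had 73.3, 83.5, 71.6, and 76.4 CPM, 154Q libraries 32.9, 42.95, 41.2, and 31.5 CPM, and 154Q-AXH libraries 41.9, 46.2, 37.2, and 17.2 CPM. Both mutant groups lay wholly below WT. The log2 fold change was -1.04 ± 0.23 (adjusted p = 0.02) in 154Q, a mean at 48.7% of WT, and -1.10 ± 0.23 (adjusted p = 0.038) in 154Q-AXH. The lowest of these libraries, 154Q-AXH-218, also had the highest hippocampal marker sum, 711 CPM against 402 to 525 CPM in WT, 206.95 to 257 CPM in 154Q, and 306 to 393 CPM in the other 154Q-AXH libraries. Of the 5 hippocampal markers, 3 were lower in 154Q and 1 in 154Q-AXH, and their part in the Igfbp4 result was not tested. Without 154Q-AXH-218, the fold change in 154Q-AXH was -0.87, adjusted p = 0.0047, and without 154Q-76, that in 154Q was -0.98, adjusted p = 0.035. The 154Q call was lost without 154Q-69 (-0.99, adjusted p = 0.056), and the 154Q-AXH call held in 4 of 12 fits that left out 1 library.

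In the striatum, Igfbp4 was at 75.99, 121, 80.2, and 108 CPM in WT, 45.4, 55.3, 42.6, and 46.3 CPM in 154Q, and 62.7, 48.5, 39.3, and 58.4 CPM in 154Q-AXH libraries. All mutant libraries lay below the lowest WT library. The fold changes were -1.02 ± 0.17 (adjusted p = 0.0048) and -0.88 ± 0.17 (adjusted p = 0.023), and the latter was lost without WT-77, WT-221, or 154Q-AXH-209 (adjusted p = 0.063, 0.075, and 0.10). The summed level of the 5 striatal markers was 747 to 2418 CPM in WT, 359 to 575 CPM in 154Q, and 293 to 1657 CPM in 154Q-AXH, so that 154Q lay wholly below WT. The median log2 fold change of this list was -1.37 in 154Q and -0.86 in 154Q-AXH with 0 of 5 called, and its part in the striatal Igfbp4 and Igfbp5 results was not tested. In the cortex, the levels were 118, 91.3, 96.5, and 103 CPM in WT, 49.8, 59.4, 54.04, and 68.4 CPM in 154Q, and 50.7, 70.5, 72.3, and 65.4 CPM in 154Q-AXH, again without overlap with WT. The fold changes were -0.82 ± 0.11 (adjusted p = 0.00033) and -0.66 ± 0.11 (adjusted p = 0.0023). The summed level of the 5 cortical markers moved in the same direction there, with 477 to 553 CPM in WT, 318 to 396 CPM in 154Q, and 316 to 399 CPM in 154Q-AXH. Of these 5, 1 was lower and 1 higher in 154Q, and 2 were lower in 154Q-AXH. Astrocyte markers were lower as well, with 6 of 8 called in 154Q and 2 of 8 in 154Q-AXH, while no endothelial, mural, or microglial marker was called in the cortex. The sum of the 5 hippocampal markers in cortex was 109 to 160 CPM in WT. It was 56.1 to 82.9 CPM in 154Q and 66.5 to 92.4 CPM in 154Q-AXH, with 2 and 1 of 5 called lower. The part of these markers in the Igfbp4 and Igfbp5 results was not tested.

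The cerebellum and brainstem differed from this for Igfbp4. In the cerebellum, 154Q libraries had 15.3, 19.2, 12.3, and 14.4 CPM against 10.3, 14.8, 7.33, and 8.01 CPM in WT, a log2 fold change of 0.60 ± 0.19 (adjusted p = 0.086) that did not pass the test, and the groups overlapped. Without WT-77, it did (0.84, adjusted p = 0.0042). In the brainstem, it was 0.08 ± 0.09 (adjusted p = 0.81). The 154Q difference varied between the 5 regions for Igfbp4 (genotype by region interaction, adjusted p = 5.4e-06) and for Igfbp5 (adjusted p = 0.0012). The other 8 members had no such call, with adjusted p of at least 0.17, and 5.71% of all genes tested had one. In 154Q-AXH, the interaction was called for Igfbp4 (adjusted p = 0.022) and not for Igfbp5 (adjusted p = 0.094), against 1.33% of all genes. With the mouse as a replicate block, the Igfbp5 interaction in 154Q-AXH had an adjusted p of 0.034, and it was also called by DESeq2 (adjusted p = 0.022), without cerebellar WT-77 (adjusted p = 0.038), and without striatal 154Q-AXH-218 (adjusted p = 0.036). Leaving out 1 library at a time kept both 154Q interactions in all 40 fits and that of Igfbp4 in 154Q-AXH in 36 of 39, the exceptions being cerebellar libraries (WT-220, WT-221, and 154Q-AXH-218, adjusted p of 0.050 to 0.054). Without WT-220 in the striatum, the Igf1 interaction in 154Q was called (adjusted p = 0.044), and without WT-220 in the brainstem, that of Igfbp6 (adjusted p = 0.020).

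Across the 5 regions, 9 of the 50 member and region pairs were called lower and 0 higher in 154Q than in WT, against 3.37% lower and 2.16% higher of all 101100 gene and region pairs. By region, 1 of 10 members was called lower in cerebellum (3.12% of all genes), 0 in brainstem (0.4%), 2 in hippocampus (3.39%), 2 in striatum (3.77%), and 4 in cortex (6.71%). In 154Q-AXH, 6 of 50 pairs were called lower and 0 higher, against 1.45% lower and 0.847% higher of all pairs. The counts were 1 in cerebellum (1.13% of all genes), 0 in brainstem (0.0138%), 1 in hippocampus (0.671%), 1 in striatum (1.08%), and 3 in cortex (4.76%). Both comparisons share the WT libraries. Every call was in a binding protein except that of Igf1 in the cortex of 154Q mice. Among the members, the fold change was below 0 in 28 of 50 pairs in 154Q and in 36 of 50 in 154Q-AXH. The median log2 fold change over the 10 members in 154Q was -0.23 in striatum, -0.19 in cortex, -0.16 in hippocampus, 0.02 in cerebellum, and 0.09 in brainstem, where those of all genes lay between -0.01 and 0.02. In 154Q-AXH, it was -0.29 in hippocampus, -0.28 in cortex, -0.21 in striatum, -0.08 in cerebellum, and -0.01 in brainstem, where those of all genes lay between -0.01 and 0.00. Igfbp4 and Igfbp5 gave 7 of the 9 calls in 154Q and 5 of the 6 in 154Q-AXH. Of the 9 calls in 154Q, 4 held in every alternative fit (Igfbp5 in cerebellum and cortex, and Igfbp4 in striatum and cortex), and of the 6 in 154Q-AXH, 3 did (Igfbp5 in cerebellum and cortex, and Igfbp4 in cortex). With the number series in the model, those 4 and 3 were the only lower calls, and Igfbp7 was higher in the cerebellum of 154Q-AXH mice (0.40, adjusted p = 0.0071).

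**Figure D2:**
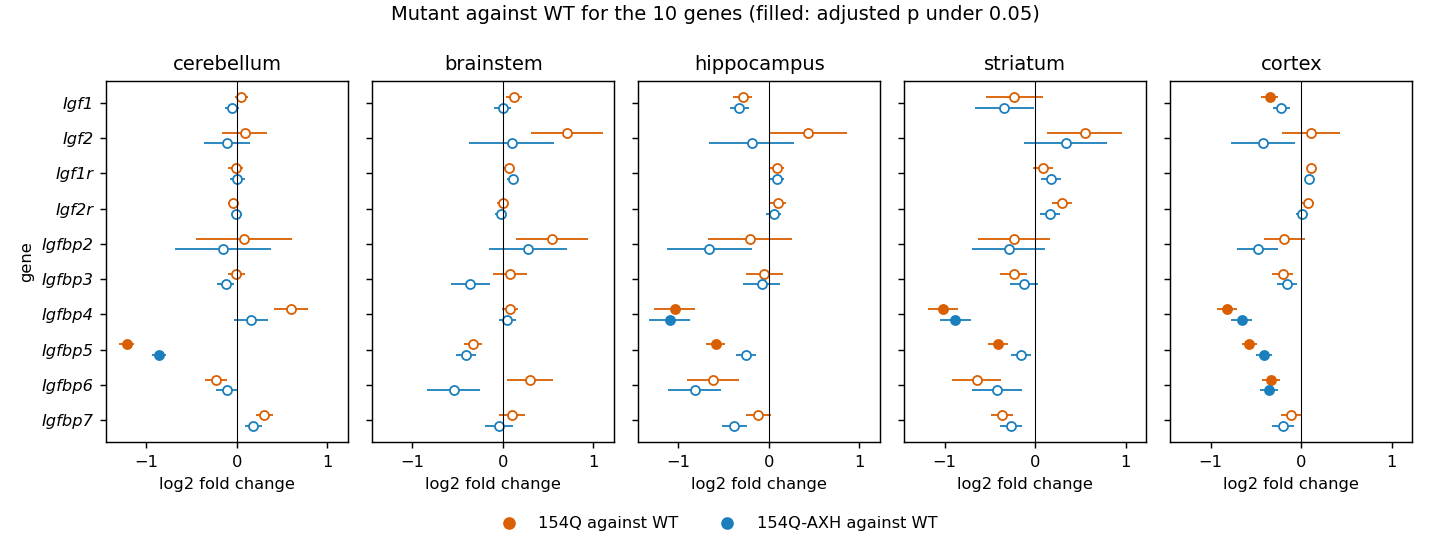
Log2 fold change against WT for the 10 members in 5 regions, in 154Q and in 154Q-AXH mice. Error bars are standard errors and filled symbols have an adjusted p under 0.05. Filled symbols are all below 0, 9 of 50 for 154Q and 6 of 50 for 154Q-AXH, and most are Igfbp5 and Igfbp4.

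Igf1 encodes the main growth factor ligand of the postnatal brain. In the cortex, it was lower in 154Q mice, with 8.003, 6.57, 8.70, and 7.05 CPM in WT, 5.66, 5.97, 6.01, and 6.17 CPM in 154Q, and 6.64, 6.25, 6.92, and 6.23 CPM in 154Q-AXH. The 154Q libraries all lay below WT, and the 154Q-AXH libraries overlapped it. The log2 fold change was -0.35 ± 0.10 (adjusted p = 0.029) in 154Q and -0.22 ± 0.10 (adjusted p = 0.2) in 154Q-AXH. The 154Q call held in 8 of 12 fits that left out 1 library and was lost without WT-70, WT-220, 154Q-69, or 154Q-71. Without the 3 doubted cortical libraries, it was also lost (-0.40, adjusted p = 0.076). In the hippocampus, Igf1 was at 10.8, 9.68, 10.97, and 11.1 CPM in WT, 7.65, 7.91, 8.66, and 10.4 CPM in 154Q, and 8.88, 8.74, 8.98, and 7.25 CPM in 154Q-AXH. Neither -0.29 ± 0.11 (adjusted p = 0.13) nor -0.33 ± 0.11 (adjusted p = 0.16) passed the test, but without the library 154Q-76, which had the highest Igf1 of its group, the 154Q difference did (-0.40, adjusted p = 0.023). In cerebellum and brainstem, the Igf1 fold changes lay between -0.05 and 0.13 and none was called. In the striatum, Igf1 ranged from 2.46 to 7.02 CPM in WT to 1.91 to 5.26 CPM in 154Q-AXH, and the lowest library of each was WT-220 and 154Q-AXH-217. These were also the libraries with the most striatal markers (2418 and 1657 CPM, against 293 to 1074 CPM in the other 10).

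Igf2 encodes the fetal growth ligand, which is imprinted in most tissues. It was the lowest member everywhere, at 0.252 to 2.56 CPM or 8 to 201 read pairs. No genotype difference was called, with log2 fold changes against WT from 0.71 in the brainstem of 154Q mice to -0.42 in the cortex of 154Q-AXH mice. At these counts, standard errors were 0.25 to 0.47, and differences well above these could also go undetected. Its values are uncertain, since 64.55% of its exon bases are shared with the read-through model Gm49394 and the antisense gene Igf2os, and the counts carry no strand. Read pairs on the shared bases count for no gene, and Gm49394 had 0 counts in every library.

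The receptors did not differ between genotypes by the test in any region. Igf1r was highest in the cerebellum, with 67.99 to 98.3 CPM in WT, 80.8 to 88.3 CPM in 154Q, and 79.9 to 89.5 CPM in 154Q-AXH. Its fold changes against WT lay between -0.01 and 0.18, and the widest 95% interval was in the striatum, 0.18 (95% CI -0.06 to 0.41, adjusted p = 0.56) for 154Q-AXH. The largest difference of Igf2r was also in the striatum, where WT libraries had 37.7, 34.2, 27.4, and 30.2 CPM and 154Q libraries 40.7, 38.99, 41.2, and 38.5 CPM. The groups did not overlap, but the fold change of 0.30 ± 0.11 (adjusted p = 0.12) did not pass the test.

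Igfbp6 encodes a binding protein with a preference for IGF2. In the cortex, it was lower in both mutant genotypes, with 67.3, 54.6, 57.2, and 63.2 CPM in WT, 47.9, 41.5, 45.9, and 56.8 CPM in 154Q, and 45.6, 45.8, 56.1, and 42.4 CPM in 154Q-AXH. One library of each mutant group (154Q-76 and 154Q-AXH-217) reached above the lowest WT library. The fold changes, -0.33 ± 0.10 (adjusted p = 0.042) and -0.35 ± 0.10 (adjusted p = 0.045), were close to the threshold and held in 4 and 5 of 12 fits that left out 1 library. With the doubted cortical libraries left out, only the 154Q call held (-0.40, adjusted p = 0.044 in 154Q and -0.31, adjusted p = 0.18 in 154Q-AXH). In the striatum, the levels were 47.6, 62.5, 32.6, and 56.2 CPM in WT, 32.8, 28.99, 32.1, and 32.9 CPM in 154Q, and 38.1, 34.6, 17.8, and 58.1 CPM in 154Q-AXH, with the lowest WT and 154Q-AXH values again in WT-220 and 154Q-AXH-217. The 154Q difference was -0.65 ± 0.28 (adjusted p = 0.18). Without those 2 libraries, left out after their values were seen, it was -0.79, adjusted p = 0.0043. The cortical marker sum was also lowest in these 2 striatal libraries (211 and 187 CPM, against 260 to 521 CPM in the other 10), and its part in the Igf1 and Igfbp6 values was not tested. In the hippocampus, Igfbp6 ranged from 6.39 to 12.2 CPM in WT, 5.02 to 6.43 CPM in 154Q, and 2.18 to 7.26 CPM in 154Q-AXH, and neither difference was called (adjusted p = 0.24 and 0.21).

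**Figure D3:**
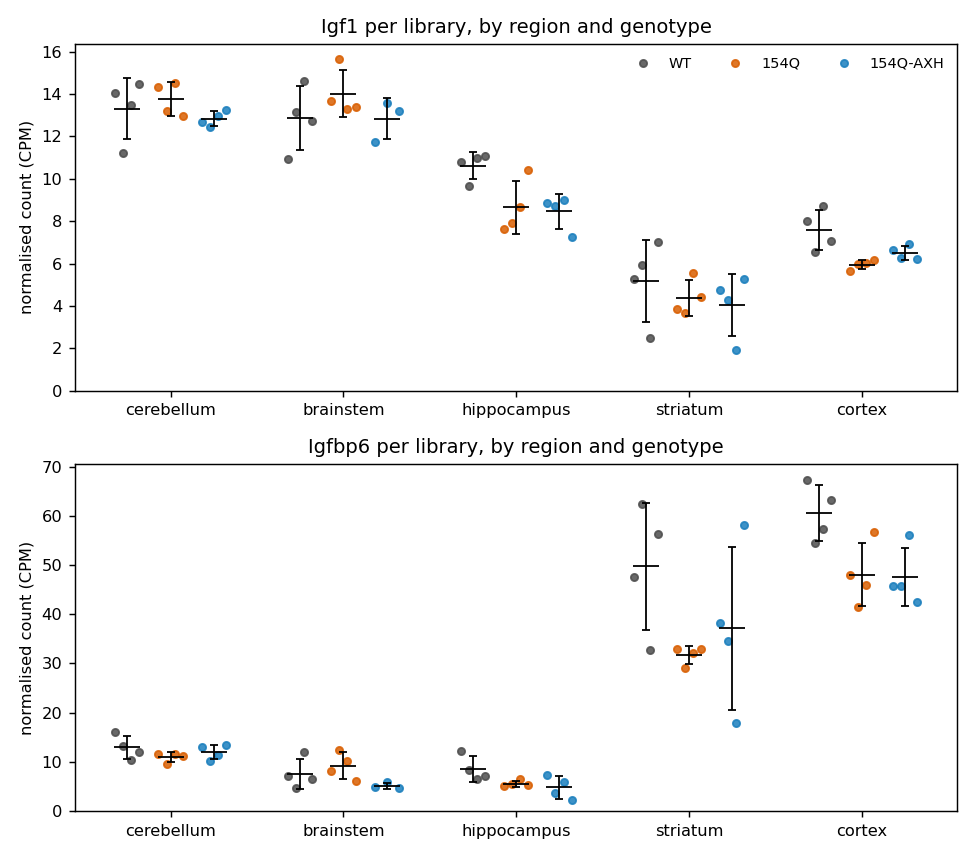
CPM of Igf1 (upper panels) and Igfbp6 (lower panels) in each library of 5 regions, by genotype. Points are libraries, horizontal marks are group means, and error bars are SD. In the cortex, the 154Q libraries have 5.66 to 6.17 CPM of Igf1 against 6.57 to 8.70 CPM in WT, and in the striatum, WT-220 and 154Q-AXH-217 have the lowest level of both genes in their groups.

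Igfbp7, a vessel-associated protein with low affinity for IGFs, was measured in the cerebellum at 11.7, 12.3, 9.48, and 8.51 CPM in WT, 11.996, 12.99, 12.7, and 14.04 CPM in 154Q, and 11.6, 11.95, 11.96, and 12.1 CPM in 154Q-AXH. The 154Q difference, 0.30 ± 0.10 (adjusted p = 0.091), did not pass the test in edgeR and passed it in DESeq2 (0.31, adjusted p = 0.027) and without WT-70 or WT-77 (adjusted p = 0.049 and 0.025). In the striatum, Igfbp7 was lower in each 154Q library (21.7, 21.1, 16.2, and 19.02 CPM) than in any WT library (25.2, 22.99, 27.9, and 24.6 CPM), again without a call (-0.37 ± 0.12 (adjusted p = 0.089)). The summed level of the 10 endothelial markers in striatum was 277 to 330 CPM in WT and 250 to 289 CPM in 154Q. Of these 10, 1 was called lower in 154Q, and no mural marker was called there. Their part in the Igfbp7 values was not tested. A share of 7.03% of the exon bases of Igfbp7 overlaps Polr2b. Igfbp3, the main carrier of IGFs in blood, was not called in any comparison, with fold changes between -0.36 and 0.08.

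Igfbp2 encodes the binding protein that is abundant in cerebrospinal fluid. It varied widely within groups, as among WT cerebella with 13.5 to 71.9 CPM. No genotype difference was called, with fold changes from -0.66 to 0.55 and standard errors of 0.22 to 0.53. In the cortex, Igfbp2 was at 64.6, 48.6, 48.9, and 60.9 CPM in WT, 34.2, 39.7, 81.9, and 39.9 CPM in 154Q, and 33.02, 38.1, 35.7, and 52.8 CPM in 154Q-AXH. The library 154Q-75 stood above all others, and it also had the highest choroid plexus marker sum of the cortex, 2403 CPM. Without it, Igfbp2 was lower in 154Q (-0.55, adjusted p = 0.025) and in 154Q-AXH (-0.48, adjusted p = 0.039).

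Choroid plexus RNA differed widely between libraries of the same group. The summed level of 12 choroid plexus markers (Ttr, Folr1, Kcne2, and others) ran from 24.9 to 5637 CPM, with 23 libraries under 100 CPM and 24 over 1000 CPM. In the cerebellum, the sums were 1471, 3097, 66.5, and 28.4 CPM in WT libraries. In the same order, Igfbp2 was at 41.8, 71.9, 13.5, and 14.4 CPM. In the brainstem, the sums were 45.6, 31.8, 3131, and 2887 CPM in the same 4 mice, and Igfbp2 was at 34.7, 28.98, 94.3, and 79.7 CPM. The libraries rich in choroid plexus markers were thus the ones rich in Igfbp2, and they came from different mice in these regions. Within genotypes, Igfbp2 rose with the choroid plexus score (the mean log2 CPM of the 12 markers) in the cerebellum by 0.36 ± 0.02 log2 units per unit of score (SE, adjusted p = 1.3e-07). The coefficient was 0.26 ± 0.02 in the brainstem (adjusted p = 4.4e-06), 0.28 ± 0.07 in the hippocampus (adjusted p = 0.043), and 0.19 ± 0.04 in the cortex (adjusted p = 0.017). The hippocampal one was lost in most fits that left out 1 library. The cortical one was lost without 154Q-75 (0.11, adjusted p = 0.51), without 154Q-71 (adjusted p = 0.0501), and without 154Q-AXH-218 (adjusted p = 0.094). Igf2 rose with the same score in the brainstem (0.27 ± 0.04, adjusted p = 0.00041) and hippocampus (0.37 ± 0.04, adjusted p = 0.00034), and Igfbp7 in the brainstem (0.08 ± 0.02, adjusted p = 0.014, lost without WT-77, WT-220, or 154Q-AXH-218). These 7 calls compare with 50 member and region pairs tested, and 2.03% of all gene and region pairs were called. The share of all genes that rose with the score was 2.1% in cerebellum, 3.05% in brainstem, 2.38% in hippocampus, and 0.613% in cortex.

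**Figure D4:**
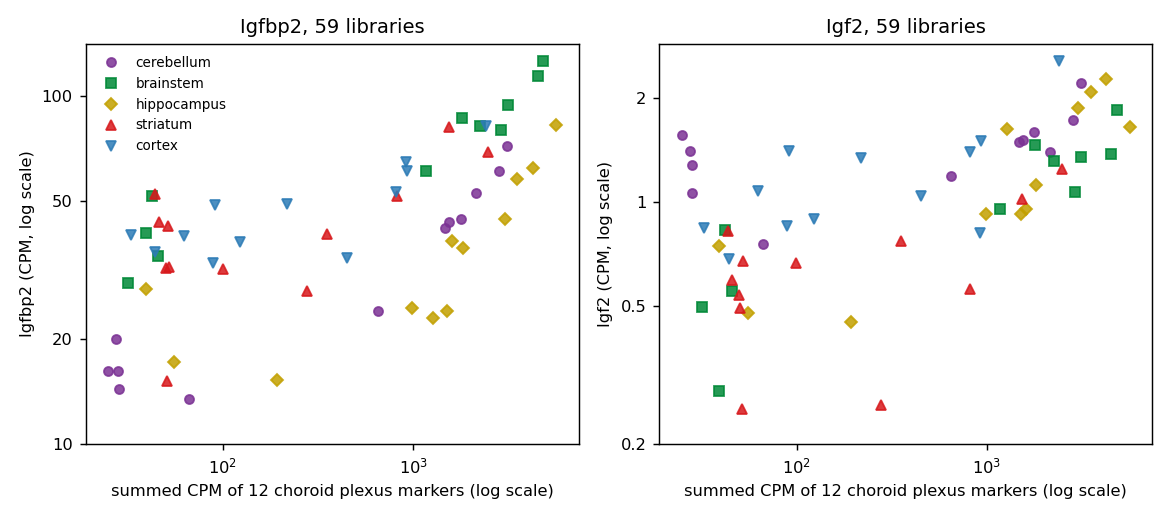
Igfbp2 and Igf2 (CPM, log axis) against the summed CPM of 12 choroid plexus markers (log axis) in each of the 59 libraries, coloured by region. Igfbp2 lies at 13.5 CPM in the WT cerebellum with a marker sum of 66.5 CPM and at 71.9 CPM in the one with 3097 CPM.

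In the comparisons of both mutant genotypes with WT, 0 of the 12 choroid plexus and 0 of the 12 meningeal fibroblast markers were called in each region. The median log2 fold change of the choroid plexus list ran from -0.29 (hippocampus) to 0.49 (brainstem) in 154Q. In 154Q-AXH, it ran from -1.03 (hippocampus) to 0.34 (brainstem). That of the meningeal list ran from -0.13 to 0.34 in 154Q and from -0.51 to 0.23 in 154Q-AXH. Equal carry-over between genotypes is thus not shown. With the choroid plexus score as a covariate, Igfbp4 was higher in the cerebellum of 154Q mice (0.62, adjusted p = 0.0096), as were Igfbp7 (0.31, adjusted p = 0.018) and, in the hippocampus, Igf2 (0.72, adjusted p = 0.035). The Igfbp4 call in the hippocampus of 154Q-AXH mice was lost with it (-0.89, adjusted p = 0.064). Among the members in 154Q, the lower calls fell from 9 to 8 with this covariate. Hippocampal Igf2os, the antisense gene that shares exon bases with Igf2, was at 0.102 to 0.273 CPM in WT and 0.672 to 1.95 CPM in 154Q. In 154Q-AXH, it was at 0.110 to 0.494 CPM. Its part in the Igf2 value was not tested. Among the WT cerebella, the score and the mouse number series cannot be told apart. The meningeal score (Dcn, Lum, Col1a1, and others) had fewer calls, in 4 of 50 pairs, with 1.11% of all gene and region pairs called (0.0965% in brainstem, 4.69% in striatum, and 1.23% in cortex). It went with Igfbp6 in the brainstem (1.32 ± 0.16 log2 units per unit of score, adjusted p = 0.0092) and striatum (0.69 ± 0.16, adjusted p = 0.038), with Igfbp2 in the striatum (1.02 ± 0.25, adjusted p = 0.043), and inversely with Igfbp7 in the cortex (-0.53 ± 0.11, adjusted p = 0.036). Without 154Q-AXH-217, neither striatal coefficient was called (adjusted p = 0.47 for Igfbp6 and 0.43 for Igfbp2), and each of the 4 lost its call in at least 3 fits that left out 1 library.

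The comparison of 154Q-AXH with 154Q asks which differences depend on CIC binding. By edgeR, 0 of the 50 member and region pairs were called, 5 had an unadjusted p under 0.05, and DESeq2 called 1. Of all gene and region pairs, 0.00692% were called by edgeR, and the share by DESeq2 is not given here. Over all genes, an unadjusted edgeR p under 0.05 was found for 1586 of 20874 in cerebellum and 1163 of 21754 in brainstem. The counts were 2356 of 21454 in hippocampus, 601 of 18408 in striatum, and 1241 of 18610 in cortex. The member with the lowest p was Igfbp5 in the cerebellum, where 154Q-AXH was higher than 154Q by 0.35 (95% CI 0.19 to 0.52, adjusted p = 0.18). DESeq2 called this difference (0.36, adjusted p = 0.0064), as did the fit of only these 2 genotypes (0.36, adjusted p = 0.028) and the fit without WT-77 (0.36, adjusted p = 0.041). With the number series in the model, it was 0.11, adjusted p = 0.64. The difference of Igfbp5 was 0.33 (95% CI 0.10 to 0.57, adjusted p = 0.42) in the hippocampus, 0.26 (95% CI 0.02 to 0.49, adjusted p = 0.94) in the striatum, 0.16 (95% CI -0.02 to 0.34, adjusted p = 0.76) in the cortex, and -0.08 (95% CI -0.31 to 0.15, adjusted p = 1.000) in the brainstem. For Igfbp4, it was -0.06 (95% CI -0.55 to 0.43, adjusted p = 0.95) in the hippocampus, 0.14 (95% CI -0.23 to 0.50, adjusted p = 0.94) in the striatum, and 0.16 (95% CI -0.08 to 0.40, adjusted p = 0.8) in the cortex. These intervals hold differences on both sides of 0 for Igfbp4, so that equality of the genotypes is not shown.

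In WT mice, 9 of the 10 members differed between regions, as did 91.6% of all genes. Over all genotypes, striatal and cortical libraries held 28058359 to 54719126 counted pairs, against 64416717 to 112343574 in the other regions. Their share counted on the first strand was 50.04 to 50.11%, against 48.91 to 49.74%. Region thus goes together with a difference between libraries, whose part in the regional levels was not tested. Igfbp4 had the widest range, with 102 ± 11.6 CPM (SD, n = 4) in cortex, 96.1 ± 21.5 CPM (SD, n = 4) in striatum, 76.2 ± 5.28 CPM (SD, n = 4) in hippocampus, 22.8 ± 3.06 CPM (SD, n = 4) in brainstem, and 10.1 ± 3.36 CPM (SD, n = 4) in cerebellum. Cortex and striatum did not differ (adjusted p = 0.78), nor did striatum and hippocampus (adjusted p = 0.061), while each other pair did. Igfbp4 was highest in the regions where it was lower in the mutants. Igfbp6 was at 60.6 ± 5.74 CPM (SD, n = 4) in cortex and 49.7 ± 12.9 CPM (SD, n = 4) in striatum, which did not differ (adjusted p = 0.44), and lower in cerebellum (12.9 ± 2.41 CPM (SD, n = 4)), hippocampus (8.50 ± 2.58 CPM (SD, n = 4)), and brainstem (7.52 ± 3.08 CPM (SD, n = 4)), the last 2 of which did not differ (adjusted p = 0.50). Igfbp5 was highest in cerebellum, at 248 ± 29.6 CPM (SD, n = 4), followed by hippocampus at 204 ± 26.9 CPM (SD, n = 4), cortex at 167 ± 18.7 CPM (SD, n = 4), brainstem at 135 ± 23.01 CPM (SD, n = 4), and striatum at 129.6 ± 12.5 CPM (SD, n = 4). Of the neighbours in this order, only cortex and brainstem differed (adjusted p = 0.018). With the mouse as a replicate block, cerebellum and hippocampus (adjusted p = 0.020) and hippocampus and cortex (adjusted p = 0.025) differed as well.

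Igf1, Igf1r, and Igf2r had their highest WT levels in cerebellum and their lowest in striatum, a region whose libraries differed as given above. Igf1 was at 13.3 ± 1.46 CPM (SD, n = 4) in cerebellum, 12.9 ± 1.51 CPM (SD, n = 4) in brainstem, 10.6 ± 0.641 CPM (SD, n = 4) in hippocampus, 7.58 ± 0.957 CPM (SD, n = 4) in cortex, and 5.18 ± 1.95 CPM (SD, n = 4) in striatum. Of these neighbours, hippocampus and cortex differed (adjusted p = 0.040, and 0.054 with the mouse as a replicate block). Igf1r was at 85.4 ± 13.5 CPM (SD, n = 4) in cerebellum and 39.6 ± 0.386 CPM (SD, n = 4) in striatum. Igf2r was at 68.4 ± 5.43 CPM (SD, n = 4) in cerebellum and 32.4 ± 4.53 CPM (SD, n = 4) in striatum. Igfbp7 ran the other way, with 25.1 ± 2.04 CPM (SD, n = 4) in striatum and 10.5 ± 1.79 CPM (SD, n = 4) in cerebellum. Igfbp3 was at 15.5 ± 1.98 CPM (SD, n = 4) in cerebellum and 9.84 ± 0.963 CPM (SD, n = 4) in striatum, and Igf2 at 1.44 ± 0.603 CPM (SD, n = 4) and 0.532 ± 0.364 CPM (SD, n = 4). The Igf2 call (adjusted p = 0.036) was lost with the mouse as a replicate block (adjusted p = 0.068) and without mouse WT-77 or WT-221 (adjusted p = 0.26 and 0.12). That of Igfbp3 was lost without WT-221 (adjusted p = 0.079). Igfbp2 did not pass the test between regions (adjusted p = 0.54), with group means from 35.4 ± 27.7 CPM (SD, n = 4) in cerebellum to 59.4 ± 32.5 CPM (SD, n = 4) in brainstem, and passed it without WT-77 (adjusted p = 0.023). Of the 100 pairs of a member and 2 regions, 55 were called, against 58.7% over all genes. Between striatum and cortex, 0 of the 10 members were called, while 10.7% of all genes were. With the mouse as a replicate block, Igfbp5 was called between them (adjusted p = 0.015).

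Per kilobase of exon, which allows levels of different genes to be compared, binding proteins led in every region. Igfbp5 led in cerebellum (WT mean 41.2 CPM per kb) and hippocampus (34.02), Igfbp6 in cortex (54.5) and striatum (44.7), and Igfbp2 in brainstem (32.2). The brainstem mean of Igfbp2 had an SD of 17.6, and Igfbp5 came next there at 22.5 with an SD of 3.83. Choroid plexus marker sums ran from 31.8 to 3131 CPM in these WT brainstem libraries, and their part in this order was not tested. Igf1, the next lowest after Igf2 everywhere, was at 1.34 CPM per kb in cerebellum and 0.523 in striatum. Igf1r was at 5.09 and 2.36 in the same regions. With the length of the longest transcript in place of all exons, Igfbp2 led in hippocampus. The part of the library difference between striatum or cortex and the other regions in these levels was not tested.

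**Figure D5:**
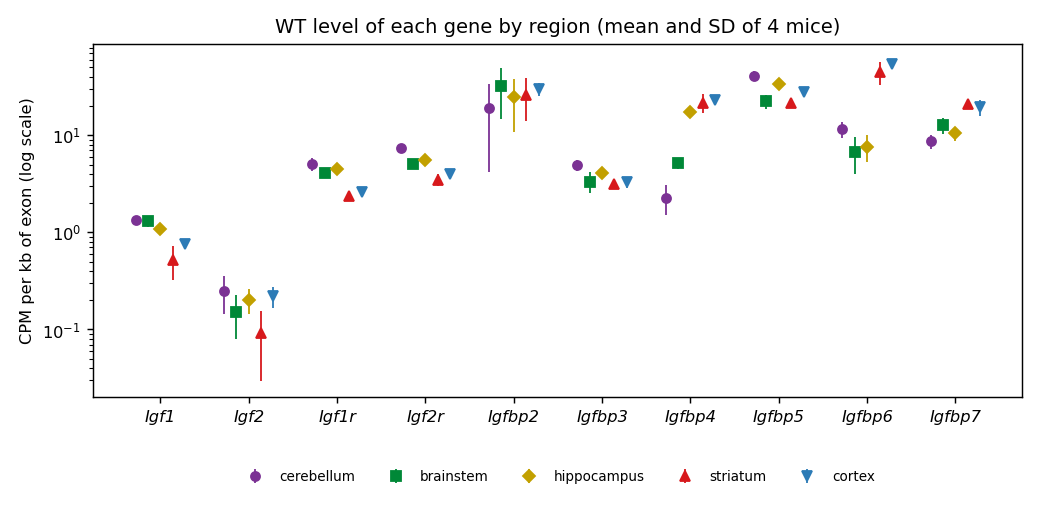
Levels of the 10 members in WT mice in 5 regions, as CPM per kilobase of exon on a log axis. Points are means of the WT mice and bars are SD. Binding proteins have the highest mean in every region, and Igf2 the lowest, from 0.0930 in striatum to 0.251 CPM per kb in cerebellum.

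The genes most like each member were found over the 59 libraries, after region and genotype means were subtracted, among 15201 genes. These are correlations of what is left within groups and share depth, dissection, and mouse. For Igfbp2, the closest were Sema3b (r = 0.945), Col8a1 (r = 0.924), and Cab39l (r = 0.901). For Igf2, they were Slc13a4 (r = 0.882), Pcolce (r = 0.882), and Slc16a12 (r = 0.871), and the correlation of Igf2 with Igfbp2 was 0.752. Igf1 was closest to Kcnk12 (r = 0.872), Cdk14 (r = 0.867), and Glt8d2 (r = 0.857), Igfbp7 to Sod3 (r = 0.781), Slc25a39 (r = 0.730), and Glmp (r = 0.729), and Igfbp6 to Wnt4 (r = 0.767), Shisa5 (r = 0.713), and Gm11223 (r = 0.707). Weaker were Igfbp4 with Bend5 (r = 0.741), Dcdc2a (r = 0.713), and Ociad2 (r = 0.693), Igfbp3 with Dcn (r = 0.719), Pole4 (r = 0.714), and Tspan13 (r = 0.671), and Igfbp5 with Fam208a (r = 0.689), Traf6 (r = 0.680), and Nhlrc2 (r = 0.677). The receptors were closest to widely expressed genes, Igf1r to Hook3 (r = 0.735), Med1 (r = 0.735), and Crebbp (r = 0.710), and Igf2r to Anapc1 (r = 0.795), Phf12 (r = 0.765), and Polr2a (r = 0.760).

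Of 45 further genes of the insulin and IGF pathway, 39 to 42 were tested in each region, in 202 gene and region pairs. In 154Q, 8 pairs were called higher and 8 lower, against 5.53% of all pairs called in either direction, and in 154Q-AXH 5 were higher and 3 lower, against 2.3%. These splits moved with the fit. In 154Q-AXH, 1 pair was higher and 5 lower with the number series in the model, and 3 were higher and 4 lower without the doubted libraries. In 154Q, 9 were higher and 5 lower with the number series, 3 and 7 with only the 2 genotypes in the fit, and 7 and 7 without the doubted libraries. No pair was called between 154Q-AXH and 154Q by edgeR. Of the 202 pairs, 13 had an unadjusted p under 0.05, where the counts over all genes are those given above for this comparison. The calls fell in 7 genes. Grb10, an adaptor that inhibits the insulin and IGF1 receptors, was higher in 154Q in cerebellum (0.24 ± 0.06 (adjusted p = 0.027)), hippocampus (0.71 ± 0.18 (adjusted p = 0.034)), striatum (0.45 ± 0.08 (adjusted p = 0.0089)), and cortex (0.38 ± 0.05 (adjusted p = 0.00049)). In 154Q-AXH, it was higher in striatum (0.39 ± 0.08 (adjusted p = 0.041)) and cortex (0.23 ± 0.06 (adjusted p = 0.018)). Its relative Grb14 was higher in the hippocampus of both (0.27 ± 0.07 (adjusted p = 0.031) and 0.40 ± 0.07 (adjusted p = 0.014)) and in the cortex of 154Q-AXH mice (0.46 ± 0.10 (adjusted p = 0.0087)). Akt2, a kinase downstream of the receptors, was lower in striatum and cortex of 154Q (-0.64 ± 0.08 (adjusted p = 0.00085) and -0.37 ± 0.06 (adjusted p = 0.00078)) and of 154Q-AXH mice (-0.54 ± 0.08 (adjusted p = 0.0049) and -0.37 ± 0.06 (adjusted p = 0.0011)).

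Htra1, a secreted protease that can cut IGF-binding proteins, was lower in 154Q in 4 regions, from -0.37 ± 0.08 (adjusted p = 0.0051) in cortex and -0.37 ± 0.05 (adjusted p = 0.0084) in brainstem to -0.42 ± 0.11 (adjusted p = 0.041) in hippocampus and -0.62 ± 0.08 (adjusted p = 0.0013) in striatum. In 154Q-AXH, it was lower in striatum (-0.40 ± 0.08 (adjusted p = 0.033)). Of the 8 astrocyte markers, 6 were called lower in 154Q in cortex and 2 in brainstem. In striatum and cerebellum 1 was, and in hippocampus 0. Their part in the Htra1 result was not tested. Stc1, a relative of the PAPP-A inhibitor Stc2, was higher in 154Q in cerebellum (1.18 ± 0.32 (adjusted p = 0.044)) and hippocampus (0.60 ± 0.14 (adjusted p = 0.022)) and lower in striatum (-1.40 ± 0.32 (adjusted p = 0.024)), and in 154Q-AXH it was higher in hippocampus (0.84 ± 0.13 (adjusted p = 0.011)). Stc2 was lower in the cortex of 154Q mice (-0.50 ± 0.12 (adjusted p = 0.015)). Gsk3b, a kinase inhibited by AKT, was higher in their hippocampus (0.22 ± 0.06 (adjusted p = 0.047)). Without the doubted libraries, 4 of these calls were lost, those of Gsk3b (0.20, adjusted p = 0.081) and Stc2 (-0.45, adjusted p = 0.1) in 154Q, and those of Grb14 (0.37, adjusted p = 0.13) and Grb10 (0.22, adjusted p = 0.12) in the cortex of 154Q-AXH mice. No call was made for the insulin receptor gene Insr, the substrates Irs1 and Irs2, the PI3 kinase subunits, or Mtor.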

How the data were processed

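Libraries were made from polyA RNA. Per the labels and the study's methods, the authors used Trimmomatic 0.36 for trimming and STAR 2.7.2d for alignment to GRCm38.p6 (GENCODE M18), and deposited raw counts of read pairs per gene in 3 columns. The column that disregards strand was used, as the stranded columns held 48.91 to 50.11% each. The submitters' notes name DESeq2 1.28.1, and no table of their comparisons was used. Of the sequenced pairs that STAR reported, 75.31 to 81.17% were counted and 4.355 to 5.332% were ambiguous. The 4 summary lines were left out.

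Genotypes were compared within each region by edgeR 4.0.16 (R 4.3.3): filterByExpr, TMM, and a quasi-likelihood test with the 3 genotypes in 1 fit, at an adjusted p under 0.05 over all genes. The WT libraries serve in both mutant comparisons. Intervals are at 95%. Interactions used all regions of 1 mutant genotype and WT, and regions were compared in WT mice. Score fits added the mean log2 CPM (prior count 2) of a marker list to the genotypes. The scripts were tested on simulated data. Within a region, replicates are separate mice, and p-values measure the spread between them. The interaction tests and those between WT regions treated libraries of 1 mouse as independent, except with the mouse as a replicate block. Libraries of 1 mouse in different regions are paired by the animal. Their deviations from group means correlated with a median r of 0.0626 over 116 pairs, against -0.00986 over 348 pairs of different mice.

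The members and lists were chosen with earlier results of these data known. Named genes were the 10 members, at most 12 called pathway genes with the lowest adjusted p in 154Q, and for each member the 3 genes with the highest correlation among those with a mean of at least 1 CPM. Gene positions and exon lengths came from GENCODE M21 and promoters from RefSeq, both of GRCm38. Alternatives were DESeq2 1.42.0, its size factors in edgeR, no filter, 2 genotypes only, each library left out, score or number series covariates, and doubted libraries exchanged or left out.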

Additional observations from a re-analysis of the deposited data

Results flagged for a closer look

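Of the 140 groups of 4 libraries, 8 held a library whose gap to the nearest other exceeded Dixon's 95% critical value, as a share of the group's range. Chance gives about 1 in 20 groups. Igfbp2 stood out in the striatum of 154Q-76 (69.1 CPM, against 31.8 to 32.3 CPM in the other 154Q libraries) and in the cortex of 154Q-75 (81.9 CPM, against 34.2 to 39.9 CPM). Igf2 did so in the cortex of 154Q-75 (2.56 CPM, against 0.844 to 1.08 CPM). Both libraries had the highest choroid plexus marker sums of their regions, 2476 CPM in the striatum and 2403 CPM in the cortex, whose part in these values was not tested.

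Igfbp5 was lowest in the cortex of 154Q-69 (100.5 CPM, against 115 to 118 CPM). Igf1 was highest in the brainstem of 154Q-71 (15.7 CPM, against 13.3 to 13.7 CPM) and lowest in the hippocampus of 154Q-AXH-218 (7.25 CPM, against 8.74 to 8.98 CPM), the library with the highest hippocampal marker sum. Igf2r was lowest in the cerebellum of 154Q-69 (59.9 CPM, against 68.1 to 69.7 CPM) and highest in the cortex of WT-221 (40.3 CPM, against 36.1 to 36.4 CPM).

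Differences against WT that varied between regions by the interaction test were those of Igfbp4 (adjusted p = 5.4e-06) and Igfbp5 (adjusted p = 0.0012) in 154Q, and of Igfbp4 in 154Q-AXH (adjusted p = 0.022).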

How the results depend on the processing

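In comparisons with a call, members and named pathway genes kept the sign of their log2 fold change in every alternative run. Comparisons never called were not checked for this. The splits of pathway calls into higher and lower moved, as given above. The 9 member calls in 154Q became 4 with the number series in the model, and the 16 pathway calls became 10 with only the 2 genotypes in the fit. The 8 pathway calls in 154Q-AXH became 13 with DESeq2. Between 154Q-AXH and 154Q, the 0 member calls became 1 with DESeq2 and 1 with only the 2 genotypes in the fit. The mouse as a replicate block raised the member interactions in 154Q-AXH from 1 to 2, as did DESeq2 (2), and left those in 154Q at 2. Of the 9 members that differed between WT regions, 8 did with the block. It could not be fitted within a region, where genotypes come from different mice, and changed no other count by over 1.5 times. The 7 choroid plexus score calls became 4 with both scores in 1 model, and the 4 meningeal score calls became 9 without the filter on low counts. The cause of these shifts was not tested.

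With 1 library left out, member calls ranged from 7 to 11 in 154Q, 5 to 7 in 154Q-AXH, and 0 to 1 between the mutants. Pathway calls ranged from 11 to 18, 6 to 9, and 0 to 0. Interactions ranged from 2 to 3 in 154Q and 0 to 2 in 154Q-AXH, regional differences from 7 to 9, choroid plexus calls from 6 to 8, and meningeal calls from 2 to 5. Each marker score rests on summed RNA, and depth limits Igf2, with as few as 8 read pairs.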
